A study of Mus musculus with 2 samples.

Results

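Arg1, Nos2, Mrc1 and Chil3 are 4 genes commonly used to sort mouse macrophages into alternatively and classically activated states. They were 4 of the 32285 genes counted, chosen by symbol, and their raw counts were read in each myeloid class of immune cells from tumours. The data are 2 single-cell libraries of CD45+ cells sorted from subcutaneous tumours of MFC, a mouse forestomach carcinoma line, grown in wild-type BALB/c mice. The treated mice received thonzonium bromide, a quaternary ammonium surfactant, at 50 mg/kg from day 6 and then every other day; the control mice received PBS, a salt solution. Tissue was taken on day 10. Each group is a single library, the number of mice behind a library is not given in the sources used here, and no test between groups was possible. Every interval below is a 95% interval that covers counting error only, not the spread between mice.

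Arginase 1, the product of Arg1, splits arginine into ornithine and urea, and inducible nitric oxide synthase, the product of Nos2, makes nitric oxide from the same amino acid. Interleukin 4 and interleukin 13 induce Arg1, Mrc1 and Chil3 in mouse macrophages through STAT6, whereas interferon gamma and microbial products induce Nos2; hypoxia and lactate are also known to induce Arg1 in tumour macrophages. Mrc1 encodes the mannose receptor CD206, an endocytic receptor of tissue macrophages. Chil3 encodes Ym1, a secreted chitinase-like protein without chitinase activity that is also known as a marker of some monocytes and neutrophils in the mouse.

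The genes lie on 4 chromosomes of build GRCm38, and all are annotated as protein coding. Arg1 (ENSMUSG00000019987) spans chr10:24915221-24927484 on the minus strand. Nos2 (ENSMUSG00000020826) spans chr11:78920787-78960254 on the plus strand. Mrc1 (ENSMUSG00000026712) spans chr2:14229392-14332057 on the plus strand. Chil3 (ENSMUSG00000040809) spans chr3:106147554-106167564 on the minus strand, near its close copy Chil4 at chr3:106201490-106219507.

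The copy matters for the counts, because reads shared by near-identical genes cannot be told apart. The coding sequences of Chil3 and Chil4 differ at 55 of 1194 aligned bases, an identity of 95.4%. In the last 300 bases of the transcripts, where 3′ libraries read, 61 bases differ and the identity is 79.7%. Chil4 had 0 UMIs in every class of both libraries, and no UMI was assigned to it in the files. The last stretch of coding sequence that both genes hold, bases 1075 to 1194 of each coding sequence (annotated transcripts on GRCm38, spliced over 2 exons), is printed with the 8 differing bases in capitals:
Chil3: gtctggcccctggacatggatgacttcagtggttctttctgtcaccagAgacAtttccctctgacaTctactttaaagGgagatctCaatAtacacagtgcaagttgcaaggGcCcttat
Chil4: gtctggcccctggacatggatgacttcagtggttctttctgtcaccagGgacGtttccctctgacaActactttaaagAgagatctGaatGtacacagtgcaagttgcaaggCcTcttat

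The 250 bases before the RefSeq starts of Mrc1 and Chil3 are shown, on GRCm38.p6. No such sequence was at hand for Arg1 or Nos2. Of any pair of members, Mrc1 and Chil3 had the least similar profiles among the myeloid classes, as given below. The Mrc1 window, chr2:14229164-14229413 on the plus strand, ends inside the gene span given above, which starts earlier than the RefSeq model. The Chil3 window is chr3:106167565-106167814 on the minus strand. Both are read 5′ to 3′ on the gene's strand, with motif matches in capitals:
Mrc1: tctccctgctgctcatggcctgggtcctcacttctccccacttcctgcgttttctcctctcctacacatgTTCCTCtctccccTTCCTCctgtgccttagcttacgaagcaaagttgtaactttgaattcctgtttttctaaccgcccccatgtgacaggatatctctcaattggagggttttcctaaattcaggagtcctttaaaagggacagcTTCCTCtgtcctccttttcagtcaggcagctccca
Chil3: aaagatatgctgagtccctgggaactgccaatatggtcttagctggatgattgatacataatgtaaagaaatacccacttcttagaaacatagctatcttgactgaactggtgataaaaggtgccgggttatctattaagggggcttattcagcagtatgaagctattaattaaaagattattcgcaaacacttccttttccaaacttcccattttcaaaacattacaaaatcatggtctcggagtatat
Both strands were searched for TATAAA (the TBP site of core promoters), the STAT6 motif (TTC and GAA with 4 bases between them), TGANTCA (AP-1), GAGGAA (ETS and PU.1) and TTGCNNNAA (C/EBP). The Mrc1 window held 3 matches to GAGGAA on its minus strand, none of which overlap, and no match to the others; the Chil3 window held no match to any. Among 32851 windows of this length, 23.3% held GAGGAA, 12.4% TATAAA, 8.29% TTGCNNNAA, 6.75% TGANTCA and 5.85% the STAT6 motif. A match describes letters in this window and not a bound site.

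The thonzonium bromide library held 6724 barcodes and 52973138 UMIs (unique molecular identifiers, each counting a captured RNA molecule once), and the PBS library 7803 barcodes and 46348444 UMIs. After filters, 5833 and 6419 cells remained, with a median of 7259 UMIs per cell in the thonzonium bromide library and 4300 in the PBS library. Haemoglobin genes took 1.16% of UMIs in the thonzonium bromide library and 8.64% in the PBS library. The libraries shared 14 barcodes, of which 9 were kept in both. Cells were clustered without the members and without the lists of arginine, activation and chitinase genes. Classes were named from marker genes, so each class name below stands for cells like that type. The C1q macrophages were 537 thonzonium bromide and 341 PBS cells, with median depths of 9775 and 5357 UMIs. The other classes used were 769 and 255 classical monocytes, 439 and 441 nonclassical monocytes, 254 and 263 type 2 conventional dendritic cells, 58 and 72 migratory dendritic cells, and 179 and 86 neutrophils, thonzonium bromide first.

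Arg1, Nos2 and Mrc1 lay mostly in C1q macrophages, and Chil3 mostly in monocytes. The C1q macrophages held 74.7% of the Arg1 UMIs of the thonzonium bromide library and 63.8% of those of the PBS library. They held 68.9% and 57.3% of the Nos2 UMIs, and 81.4% and 67.1% of the Mrc1 UMIs, of the thonzonium bromide and PBS libraries. Unnamed clusters held a further 5.66% of the Nos2 UMIs with thonzonium bromide and 31.25% with PBS. Of the Chil3 UMIs the C1q macrophages held 13.2% in the thonzonium bromide library and 6.68% in the PBS library. Classical monocytes held 69.0% and 73.3% of the Chil3 UMIs of the same libraries. B, T and NK cells, which do not normally express these genes, gave a background level. Whether it came from free RNA or from doublets was not tested. Arg1, Nos2 and Mrc1 stayed under 1.1 CPM there (UMIs of a gene per 1000000 UMIs of the class, the unit of every level below). Chil3 reached 9.16 CPM in T cells of the thonzonium bromide library and 2.60 CPM in those of the PBS library, with a UMI in 3.61% and 1.41% of T cells at median depths of 6569.5 and 4921 UMIs.

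**Figure D1:**
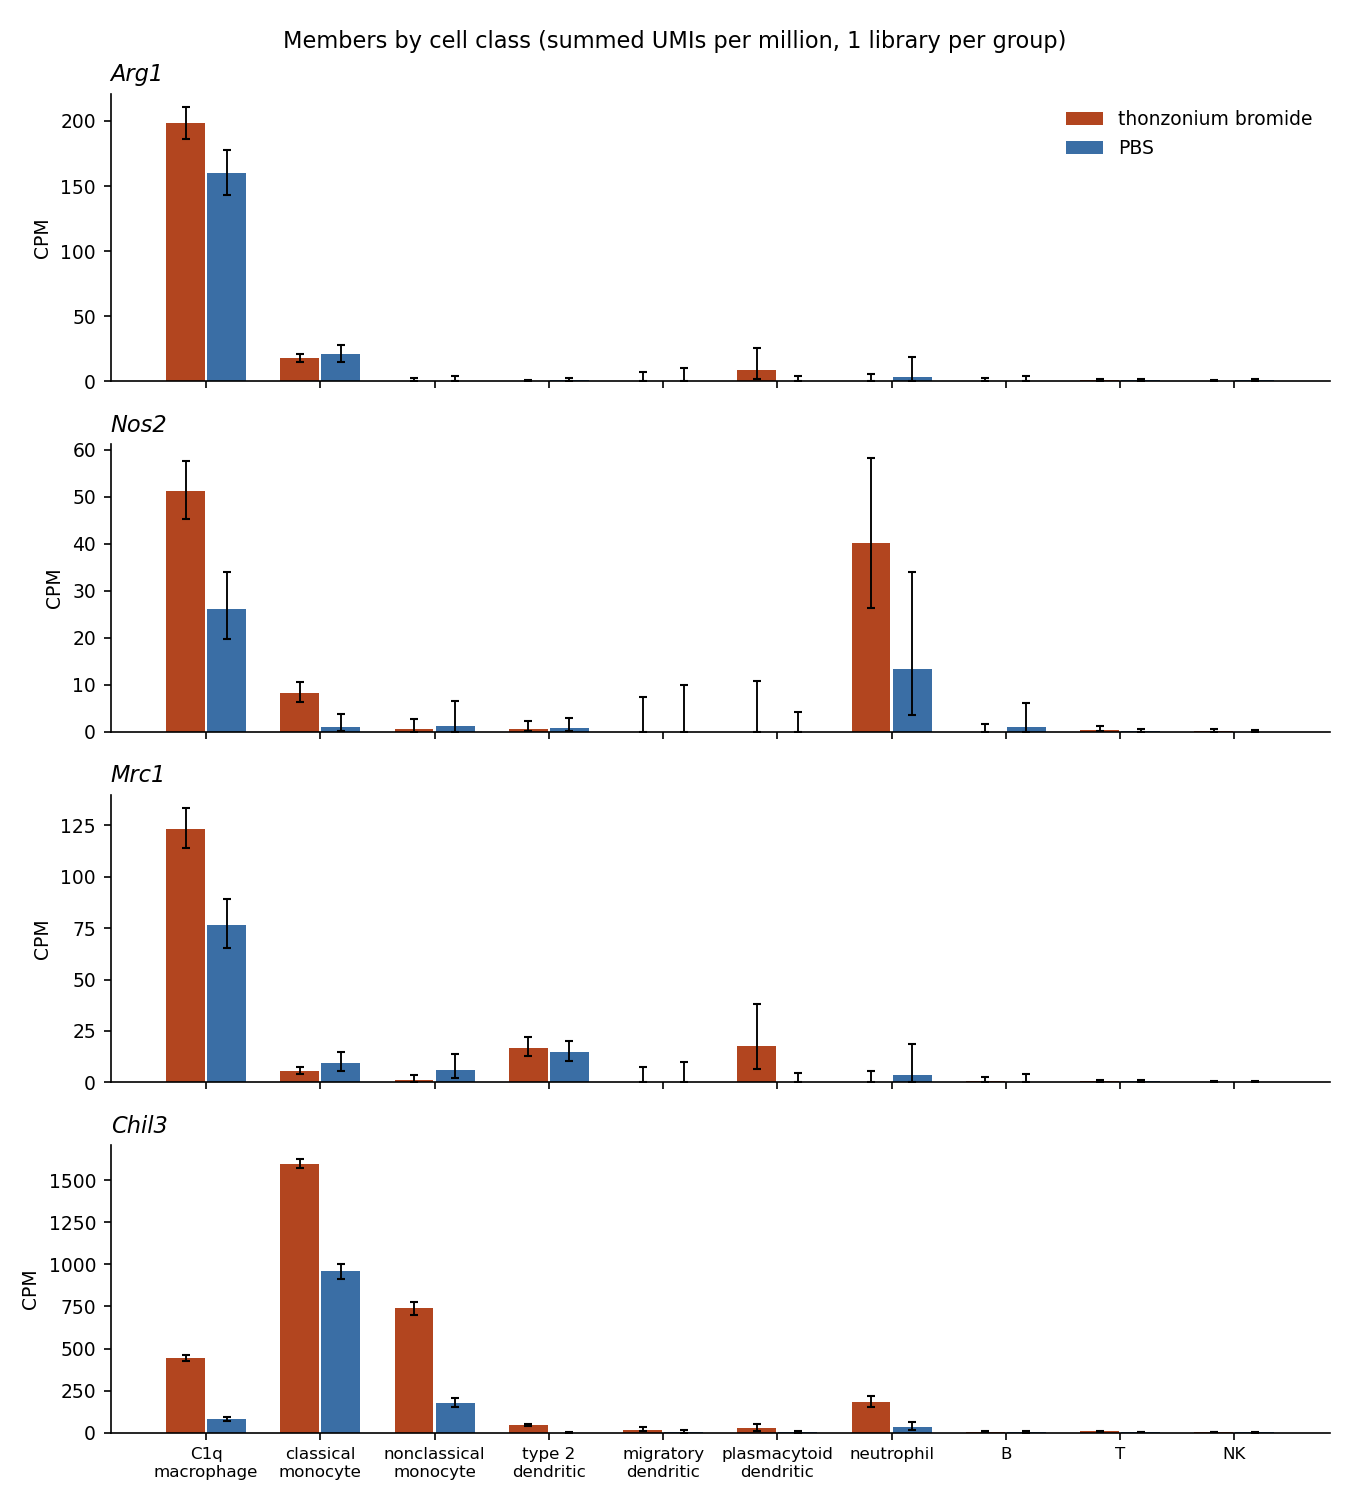
Levels of Arg1, Nos2, Mrc1 and Chil3 by class in the thonzonium bromide and PBS libraries, in CPM, with 95% counting intervals (n = 1 library per group). Arg1 and Mrc1 are highest in C1q macrophages in both libraries, as is Nos2 with overlapping intervals in neutrophils, and Chil3 is highest in classical monocytes, at 1599 CPM with thonzonium bromide and 959 CPM with PBS.

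In C1q macrophages all 4 genes were higher in the thonzonium bromide library, Chil3 by the widest margin and Arg1 by the narrowest. A ratio of at least 2 was reached by 1 of the 4, Chil3, where 0.946% of the 8137 genes with at least 50 UMIs in the class reached it; the median log2 ratio of those genes was 0.01. Fewer cells of a kind within the class and less RNA per cell cannot be told apart in these sums. The class also differed in makeup between the libraries, which is described after the single genes.

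Arg1, the arginase, had 1038 UMIs in 122 thonzonium bromide C1q macrophages and 336 UMIs in 64 PBS ones. These are levels of 198 CPM (186 to 211) with thonzonium bromide and 159.7 CPM (143 to 178) with PBS, a ratio of 1.24 (1.10 to 1.41). The share of cells with an Arg1 UMI was 22.7% with thonzonium bromide and 18.8% with PBS. After thinning each cell to 1000 UMIs, which removes the depth gap, it was 11.2% of 518 thonzonium bromide cells and 10.2% of 275 PBS cells. Arg1 RNA was concentrated in few cells: the 3 cells with most held 20.1% of the class's UMIs with thonzonium bromide and 23.2% with PBS, and the single highest cells held 120 and 29 UMIs. The ratio depended on which cells entered the class. Its log2 value of 0.31 turned to -0.87 without the cluster led by Ccl2 and Ccl7, to -1.14 when each library was clustered alone, to -0.98 with a marker gate on single cells, to -0.079 with cells of at least 500 genes and to -0.0072 without the fine cluster led by Pf4 and Ccl8.

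Nos2, the nitric oxide synthase, was the sparsest of the set. It had 268 UMIs in 52 thonzonium bromide C1q macrophages and 55 UMIs in 19 PBS ones. The levels were 51.1 CPM (45.2 to 57.7) with thonzonium bromide and 26.1 CPM (19.7 to 34.0) with PBS, a ratio of 1.96 (1.46 to 2.67). The share of cells with a UMI was 9.68% with thonzonium bromide and 5.57% with PBS, but at equal depth it was 3.67% and 3.64%. The 3 highest cells held 28.4% of the UMIs with thonzonium bromide and 40% with PBS. This ratio also changed direction with the cells taken: its log2 value of 0.97 turned to -0.75 without the cluster led by Ccl2 and Ccl7, to -1.04 with each library clustered alone, to -0.17 at a finer clustering and to -0.15 with cells of at least 500 genes.

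Mrc1, the mannose receptor gene, had 647 UMIs in 133 thonzonium bromide C1q macrophages and 161 UMIs in 53 PBS ones. The level was 123 CPM (114 to 133) with thonzonium bromide and 76.5 CPM (65.2 to 89.3) with PBS, a ratio of 1.61 (1.36 to 1.93). Shares of cells with a UMI were 24.8% and 15.5%, and at equal depth 9.27% with thonzonium bromide and 6.91% with PBS. The ratio stayed above 1 in all 18 alternative settings, with log2 values of 0.018 to 1.29 about a value of 0.69, and the lowest came from leaving out cells that held a lymphocyte marker UMI.

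Chil3 showed the largest gap between libraries of the set. It had 2331 UMIs in 240 thonzonium bromide C1q macrophages and 170 UMIs in 45 PBS ones, or 445 CPM (427 to 463) and 80.8 CPM (69.1 to 93.9). The ratio was 5.51 (4.71 to 6.47). A Chil3 UMI was found in 44.7% of thonzonium bromide and 13.2% of PBS cells, and at equal depth in 22.6% and 4.73%. All 18 alternatives kept the direction, with log2 values of 2.01 to 3.26 about a value of 2.46. In the same class the 7 markers of classical monocytes summed to 12066 CPM with thonzonium bromide and 9754 CPM with PBS, and 6 of the 7 were higher with thonzonium bromide. The 8 neutrophil markers summed to 240.1 CPM with thonzonium bromide and 144 CPM with PBS, with Ly6g at 0 in both libraries and Retnlg at 0 with PBS. The background level of Chil3 in T cells, given above, was 3.52 times as high in the thonzonium bromide library. The part of these in the Chil3 gap was not tested.

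Further marker sums differed between the libraries in this class. The 8 C1q macrophage markers summed to 8034 CPM with thonzonium bromide and 9849 CPM with PBS, and 1 of the 8 was higher with thonzonium bromide. Erythroid markers summed to 133 CPM in thonzonium bromide C1q macrophages and 5042 CPM in PBS ones, osteoclast markers to 148 and 504 CPM, and the 6 muscle markers to 193 and 1.43 CPM. T cell markers summed to 22.5 CPM with thonzonium bromide and 87.4 CPM with PBS, and NK cell markers to 20.6 and 105 CPM. The member ratios without cells that hold a lymphocyte marker UMI are given with the other alternatives, and the part of the other sums was not tested.

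The C1q class was made of 3 clusters that carried the genes unequally. The cluster led by C1qb and C1qa was 50.5% of thonzonium bromide and 41.3% of PBS C1q macrophages. The cluster led by Ccl2 and Ccl7, chemokines that draw monocytes, was 43.2% of thonzonium bromide and 27.3% of PBS ones. A shallow cluster, with a median of 1231.5 UMIs per thonzonium bromide cell and 844 per PBS cell, was 6.33% and 31.4%. Arg1 and Nos2 were concentrated in the Ccl2-led cluster: Arg1 was at 447 CPM there with thonzonium bromide and 360.4 CPM with PBS, against 19.3 and 21.2 CPM in the C1qb-led cluster. Nos2 was at 119 CPM with thonzonium bromide and 60.7 CPM with PBS in the Ccl2-led cluster, against 3.67 and 7.08 CPM in the C1qb-led one. Within the C1qb-led cluster the intervals of the libraries overlapped for Arg1 (14.7 to 25.0 CPM with thonzonium bromide, 13.6 to 31.6 CPM with PBS) and for Nos2.

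Mrc1 followed the same order. It was at 212 CPM with thonzonium bromide and 164 CPM with PBS in the Ccl2-led cluster, and at 48.4 and 15.04 CPM in the C1qb-led one. Chil3 was higher with thonzonium bromide in both deep clusters, at 624 CPM against 115 CPM with PBS in the Ccl2-led cluster and at 327 CPM against 68.1 CPM in the C1qb-led one. In the shallow cluster Arg1 was at 177 CPM (96.6 to 297) with thonzonium bromide and 165 CPM (114 to 232) with PBS. Mrc1 was at 543 CPM (393 to 731) with thonzonium bromide, from 43 UMIs in 9 cells, there and at 85.1 CPM (49.6 to 136) with PBS, and Nos2 had 0 UMIs in both libraries.

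A finer clustering, at Leiden resolution 2, separated the cells high in the members further. These 3 fine clusters, and the genes named in them, were picked after their member values had been seen, so they are a description. The first, led by Pf4, Acta1, Ccl8 and Ccl7, had 44 thonzonium bromide cells and 3 PBS cells, all from the C1q class. In its thonzonium bromide cells Mrc1 was at 858 CPM with a UMI in 38 cells, Arg1 at 856 CPM in 24 cells, Chil3 at 821 CPM in 30 cells, and Nos2 had 0 UMIs, which at 3 counts allows up to 7.97 CPM. Its PBS cells, too few to compare, held 49 Mrc1, 29 Arg1, 0 Chil3 and 0 Nos2 UMIs. Muscle markers summed to 2637 CPM in its thonzonium bromide cells, of which Acta1, skeletal muscle actin, gave 1558 CPM, and to 0 UMIs in its 3 PBS cells.

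The second fine cluster, led by Ccl2, Ccl7, Hmox1 and Arg1, had 155 thonzonium bromide and 81 PBS cells and stayed without a class name at this resolution. There Arg1 was at 432 CPM (399 to 468) with thonzonium bromide and 453 CPM (402 to 507) with PBS, levels whose intervals overlap. Nos2 was at 165 CPM (144 to 187) with thonzonium bromide and 72.6 CPM (53.3 to 96.5) with PBS. Mrc1 was at 82.6 CPM with thonzonium bromide and 117 CPM with PBS, the reverse of the class as a whole, and Chil3 at 589 and 83.4 CPM. The third, led by C1qa and Ccl12, had 148 thonzonium bromide and 78 PBS cells with Arg1 at 18.7 and 31.3 CPM, Nos2 at 5.66 and 4.08 CPM, Mrc1 at 61.1 and 14.95 CPM, and Chil3 at 164 and 10.9 CPM.

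Arg1 was thus high in 2 kinds of cells that differed in their other genes. In the thonzonium bromide library Folr2, a folate receptor of resident macrophages, was at 289.7 CPM in the Pf4-led cells and 15.8 CPM in the Ccl2-led ones, and Clec10a, a lectin of alternative activation, at 119.6 and 6.20 CPM. Vegfa, a hypoxia-induced growth factor, ran the other way, at 7.97 CPM in the Pf4-led and 290.6 CPM in the Ccl2-led cells. The same held for Gpnmb, a lysosomal glycoprotein, at 13.3 and 429 CPM. The hypoxia and glycolysis list, 16 genes, summed to 3304 CPM in the Pf4-led and 9186 CPM in the Ccl2-led thonzonium bromide cells, and to 9367 CPM in the Ccl2-led PBS cells. H2-Ab1, a chain of the class II molecule that presents antigen, was at 491.7 CPM in the Pf4-led and 554 CPM in the Ccl2-led thonzonium bromide cells, against 3720 CPM in the third cluster.

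**Figure D2:**
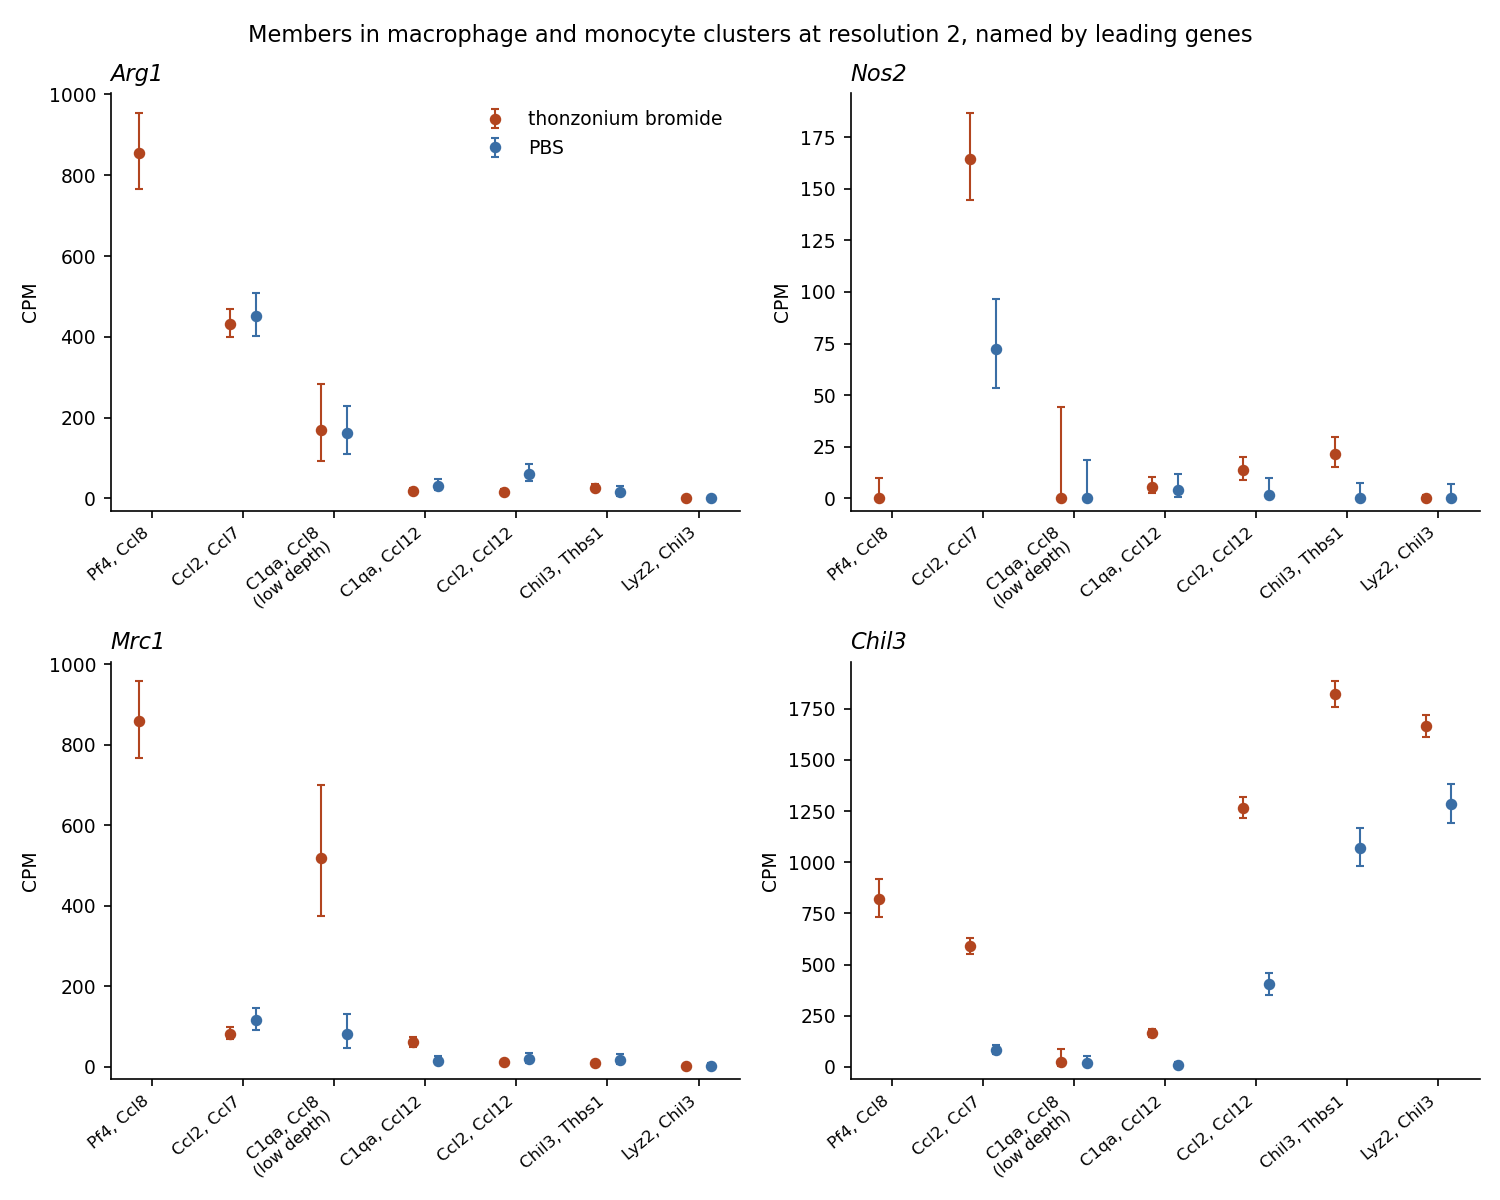
Levels of the 4 genes in fine clusters of macrophages and monocytes, named by leading genes, in CPM with 95% counting intervals, for thonzonium bromide and PBS; the 3 PBS cells of the Pf4- and Ccl8-led cluster are not drawn. Arg1 is high in both the Pf4-led and the Ccl2-led cells, Mrc1 is highest in the Pf4-led cells at 858 CPM, and Nos2 is highest in the Ccl2-led cells at 165 CPM with thonzonium bromide and 72.6 CPM with PBS.

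Monocytes carried Chil3 and little of the rest. In classical monocytes Chil3 was at 1599 CPM (1571 to 1628) with thonzonium bromide, from 12149 UMIs, and at 959 CPM (916 to 1004) with PBS, from 1866 UMIs, a ratio of 1.67 (1.59 to 1.75). A UMI was found in 73.0% of thonzonium bromide and 55.3% of PBS classical monocytes, and at equal depth in 52.7% and 38.0%. All 15 alternatives kept the direction, with log2 values of 0.59 to 1.14 about 0.74. The 3 highest cells held 2.41% of its UMIs with thonzonium bromide and 10.5% with PBS. Neutrophil markers, among them granule genes, summed to 1182 CPM in thonzonium bromide and 430 CPM in PBS classical monocytes, and erythroid markers to 5470 and 491 CPM; their part in the Chil3 ratio was not tested.

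The other members were low in classical monocytes. Arg1 had 135 UMIs with thonzonium bromide, 83 of them in 1 cell, and 40 UMIs with PBS, or 17.8 and 20.6 CPM, a ratio of 0.864 (0.603 to 1.26). The sign held in 10 of 15 alternatives, with log2 values of -3.46 to 2.56 about -0.21. Nos2 had 63 UMIs in 15 thonzonium bromide cells and 2 UMIs in 2 PBS cells, 8.29 and 1.03 CPM, a ratio of 8.07 (2.14 to 68.1). This was the single member of the 4 with a ratio of at least 2 in the class, where 1.04% of 8212 genes reached it, and at most 10% mitochondrial UMIs turned its log2 ratio of 3.01 to -0.91. Mrc1 had 42 and 18 UMIs, 5.53 CPM with thonzonium bromide and 9.25 CPM with PBS, a ratio of 0.597 (0.337 to 1.10), and the sign held in 11 of 15 alternatives, with log2 values of -2.32 to 0.72 about -0.74.

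In nonclassical monocytes, which patrol vessels, Chil3 was at 739 CPM (702 to 777) with thonzonium bromide and 178 CPM (150.3 to 209) with PBS, a ratio of 4.16 (3.51 to 4.95). Of 5783 genes measured there, 2.97% had a ratio of at least 2, and Chil3 was the 1 member with enough UMIs to be measured. A UMI was found in 35.8% of thonzonium bromide and 11.6% of PBS cells, and at equal depth in 24.6% and 10.5%. The class was drawn from different clusters in the libraries: 248 of the 439 thonzonium bromide cells were in a deep cluster that held 65 of the 441 PBS cells, and the other PBS cells were in a shallow one. With the clusters given the same weights in both libraries, the log2 ratio was 1.54 in place of 2.06. Classical monocyte markers summed to 9440 CPM with thonzonium bromide and 5778 CPM with PBS in this class, with all 7 higher with thonzonium bromide. T cell markers summed to 28.9 CPM with thonzonium bromide and 193 CPM with PBS, NK cell markers to 28.4 and 382 CPM, and erythroid markers to 192 and 4654 CPM; their part in the Chil3 ratio was not tested. Arg1, Nos2 and Mrc1 had at most 5 UMIs in either library.

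Dendritic cells and neutrophils held few counts. In type 2 conventional dendritic cells Mrc1 had 52 UMIs in 15 thonzonium bromide cells and 37 UMIs in 13 PBS cells, 16.9 and 14.6 CPM, a ratio of 1.15 (0.741 to 1.81). Chil3 had 143 UMIs in 16 thonzonium bromide cells and 3 UMIs in 3 PBS cells, at 46.4 and 1.19 CPM, a ratio of 39.1 (13.1 to 192; log2 values of 2.56 to 5.35 over 12 alternatives), with 67.8% of the thonzonium bromide UMIs in 3 cells. It was the 1 of 2 measured members with a ratio of at least 2, which 0.62% of 7415 genes reached. Arg1 had 0 UMIs in 254 thonzonium bromide cells, which at 3 counts allows a share of cells with a UMI of up to 1.18%, and 2 UMIs with PBS. In migratory dendritic cells Arg1, Nos2 and Mrc1 had 0 UMIs in 58 thonzonium bromide cells and in 72 PBS cells, which at 3 counts allows shares of cells with a UMI of up to 5.17% and 4.17%, and Chil3 had 9 and 1 UMIs. Plasmacytoid dendritic cells, 33 with thonzonium bromide and 136 with PBS, had 3 and 0 Arg1 UMIs, 6 and 0 Mrc1 UMIs, no Nos2 UMI and 9 and 3 Chil3 UMIs; no ratio was formed from so few cells.

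Neutrophils held other members of the same gene families. Chil3 was at 186 CPM with thonzonium bromide, from 125 UMIs of which 76.0% lay in 3 cells, and at 33.2 CPM with PBS, from 10 UMIs, a ratio of 5.58 (2.94 to 11.9). Its log2 value of 2.48 ranged from 0.66 to 4.15 over 14 alternatives. Here 3.64% of 1952 genes had a ratio of at least 2. Nos2 had 27 UMIs in 9 thonzonium bromide cells and 4 UMIs in 2 PBS cells, 40.1 CPM (26.4 to 58.3) and 13.3 CPM (3.62 to 34.0), intervals that overlap those of the C1q macrophages of the same library. Arg1 had 0 and 1 UMI, whereas Arg2, the mitochondrial arginase, was at 426 CPM with thonzonium bromide and 369 CPM with PBS, a ratio of 1.16 (0.925 to 1.45), with a UMI in 70.4% and 65.1% of neutrophils. In C1q macrophages Arg2 was at 17.2 CPM with thonzonium bromide and 12.8 CPM with PBS. Chil1, another chitinase-like gene, was at 157 CPM in thonzonium bromide and 106 CPM in PBS neutrophils, a ratio of 1.48 (0.988 to 2.27), and had 0 and 1 UMI in C1q macrophages. Nos1, Nos3 and Mrc2, the other family members, had at most 1 UMI each in either library's C1q macrophages.

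Whether the genes mark the same cells was asked among C1q macrophages. In both libraries Mrc1 was detected more often in cells with Arg1 than in cells without it. Of 122 thonzonium bromide cells with Arg1, 49 (40.2%) also had Mrc1, against 20.2% of the 415 cells without Arg1, an odds ratio of 2.64 (1.67 to 4.17). Of 64 PBS cells with Arg1, 19 (29.7%) had Mrc1, against 12.3% of 277, an odds ratio of 3.01 (1.48 to 5.99). Detection of any pair rises with depth, and at 1000 UMIs per cell the odds ratio was 1.98 (0.795 to 4.48) with thonzonium bromide and 0.472 (0.0109 to 3.24) with PBS, both intervals spanning 1.

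For Arg1 and Nos2, whose products use the same substrate, such a pairing was seen in the thonzonium bromide library. In the thonzonium bromide library 26 of the 122 Arg1 cells (21.3%) had Nos2, against 6.27% of cells without Arg1, an odds ratio of 4.04 (2.15 to 7.60), and at equal depth 5.10 (1.62 to 14.8). In the PBS library 6 of 64 Arg1 cells (9.38%) had Nos2, against 4.69%, an odds ratio of 2.10 (0.626 to 6.21), an interval that spans 1. At equal depth the 28 PBS cells with Arg1 held 1 Nos2 UMI and the 247 without it held 10. Both genes were concentrated in the Ccl2-led cluster of resolution 1. It held 94 of the 122 thonzonium bromide and 40 of the 64 PBS cells with Arg1. Nos2 was found in 44 thonzonium bromide and 12 PBS cells of that cluster. The part of that cluster in the pairing was not tested, so the class-wide odds ratios do not show a pairing within it. Arg1 cells more often had Chil3, at 58.2% against 40.7% with thonzonium bromide and 23.4% against 10.8% with PBS, odds ratios of 2.02 (1.32 to 3.12) and 2.51 (1.17 to 5.25). At equal depth these were 2.15 (1.14 to 3.97) with thonzonium bromide and 1.65 (0.169 to 8.19) with PBS. Mrc1 and Nos2 showed no such pairing: the odds ratio was 0.799 (0.359 to 1.64) with thonzonium bromide and 1.02 (0.184 to 3.76) with PBS. Within that Ccl2-led cluster of the thonzonium bromide library Nos2 was detected less often in cells with Mrc1 than in cells without it. The odds ratio was 0.385 (0.146 to 0.904) from all UMIs. Its value at equal depth and in the PBS library, where 12 cells of the cluster had Nos2, is not given.

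Cells with at least 5 UMIs of a gene were counted as well. In the thonzonium bromide library 50 C1q macrophages had at least 5 Arg1 UMIs and held 86.9% of the gene's UMIs; 9 of them had at least 5 Nos2 UMIs and 9 had at least 5 Mrc1 UMIs. In the PBS library 23 cells had at least 5 Arg1 UMIs, of which 6 were among the 7 cells with at least 5 Mrc1 UMIs and 1 among the 5 with at least 5 Nos2 UMIs. No member was detected in 183 of 537 thonzonium bromide cells (34.1%) and in 208 of 341 PBS cells (61.0%), whose median depths were 8849 and 3205.5 UMIs.

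**Figure D3:**
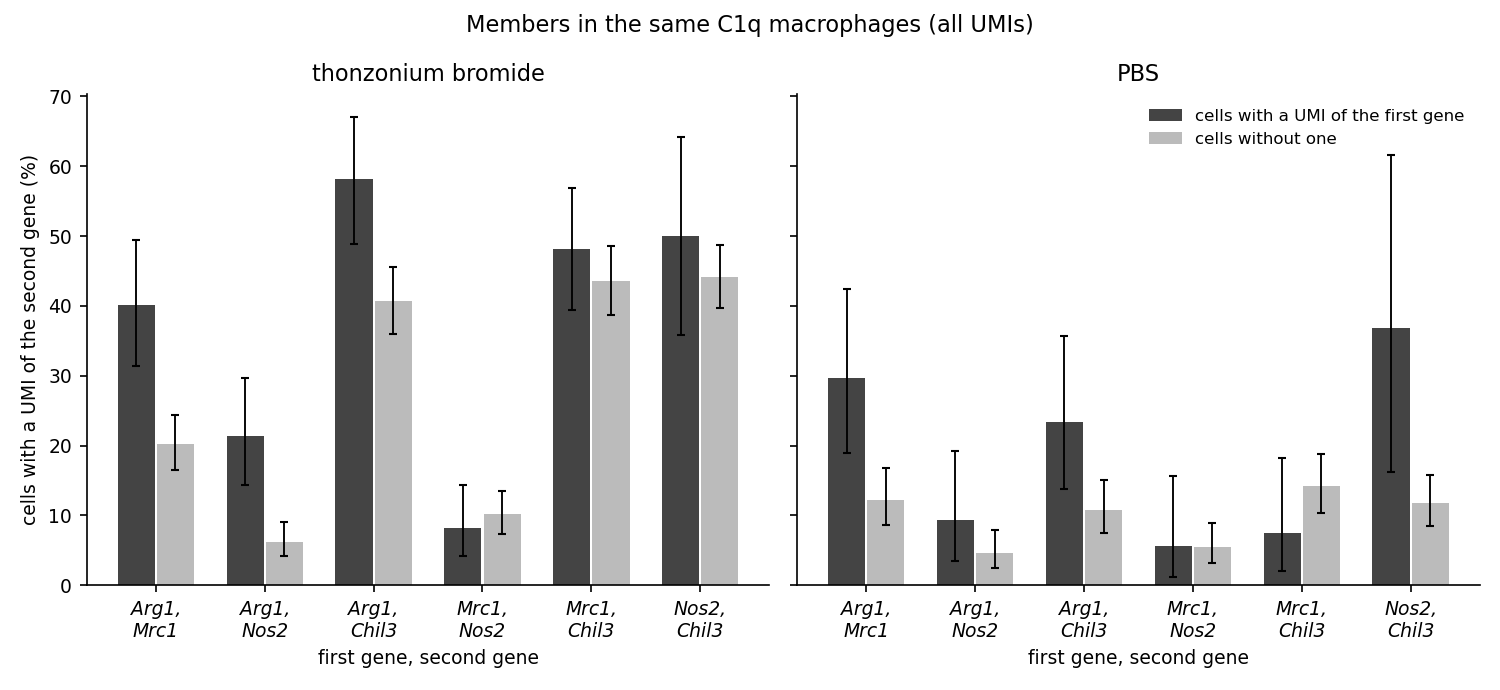
Share of C1q macrophages with a UMI of a second gene (percent, 95% exact binomial intervals) among cells with and without a UMI of a first gene, in the thonzonium bromide and PBS libraries. All UMIs are used, without thinning to equal depth. Mrc1 is found in 40.2% of thonzonium bromide cells with Arg1 and 20.2% of those without, whereas Nos2 is found in similar shares of cells with and without Mrc1. At equal depth the intervals for Arg1 with Mrc1 include equal odds in both libraries.

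The genes that went with Arg1 were described by splitting the thinned C1q macrophages by an Arg1 UMI, 58 with against 460 without in the thonzonium bromide library and 28 against 247 in the PBS library. Ranked over 1171 genes by the smaller of the 2 libraries' differences, Spp1 (osteopontin, a secreted matrix protein) came first. It was at 2172 CPM in cells with Arg1 against 467 CPM in those without in the thonzonium bromide library, and at 2500 against 502 CPM in the PBS library. Also higher in cells with Arg1 were Pf4, a platelet-factor chemokine, at 707 against 174 CPM with thonzonium bromide and 786 against 198 CPM with PBS, and Fabp5, a fatty acid carrier, at 2052 against 713 and 2250 against 668 CPM. Cxcl2, which draws neutrophils, and the hypoxia genes Vegfa and Ero1l were higher as well.

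H2-Ab1, H2-Aa and H2-Eb1, chains of class II molecules, were lower in the cells with Arg1. H2-Ab1 was at 397 CPM in cells with Arg1 against 2667 CPM in those without with thonzonium bromide, and at 214 against 1688 CPM with PBS. H2-Aa was at 379 against 2396 CPM with thonzonium bromide, and had 2 UMIs against 1457 CPM with PBS. H2-Eb1 was at 189.7 against 1880.4 CPM with thonzonium bromide and 214 against 1215 CPM with PBS. The PBS cells with Arg1 held 6 UMIs each of H2-Ab1 and H2-Eb1, so these levels rest on few counts. The interferon-induced chemokine Cxcl9 had 3 UMIs against 267 CPM with thonzonium bromide and 0 UMIs against 138 CPM with PBS. Ccl5, a chemokine that T and NK cells also express, was at 155 against 600 CPM in thonzonium bromide cells. In PBS cells it had 1 UMI against 1121 CPM. Arg1 was not used to cluster these cells, but the split chose among genes with their values in view, so these are descriptions.

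**Figure D4:**
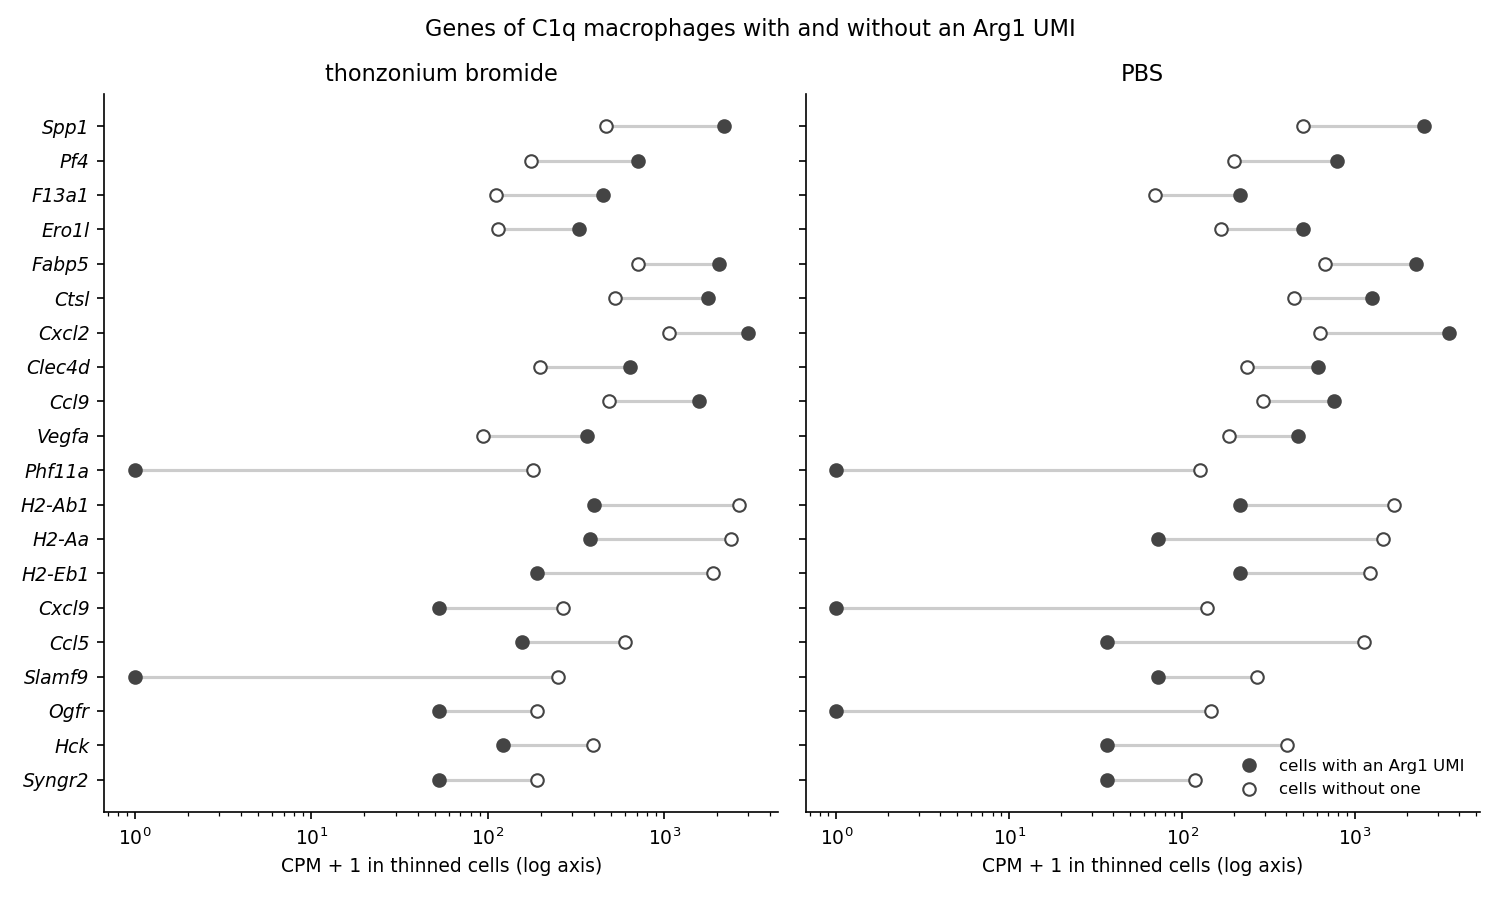
Genes most different between C1q macrophages with and without an Arg1 UMI, in thonzonium bromide (left) and PBS (right) cells thinned to 1000 UMIs; the log axis gives CPM plus 1. Spp1, Pf4, Fabp5 and Cxcl2 are higher in cells with Arg1 in both libraries, and H2-Ab1, H2-Aa and H2-Eb1 are lower.

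Cells with an Mrc1 UMI, 48 of 518 with thonzonium bromide and 19 of 275 with PBS, differed in part. Pf4 led again, at 1354 CPM against 119 CPM in cells without Mrc1 with thonzonium bromide and 1421 against 172 CPM with PBS. Ccl6, a chemokine, was at 3312.5 against 666 CPM with thonzonium bromide and 947 against 320.3 CPM with PBS, and Selenop, a selenium carrier, at 792 against 162 and 316 against 133 CPM. Cxcl9 had 3 UMIs against 262 CPM with thonzonium bromide, and the 19 PBS cells with Mrc1 were too few to show its level. The class II genes were not among the 10 genes lowest in cells with Mrc1.

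Classical monocytes with a Chil3 UMI were higher in S100a8 and lower in H2-Ab1 and Cd74. S100a8, a calcium-binding protein abundant in neutrophils, was at 1166 CPM in monocytes with Chil3 against 343 CPM in those without in the thonzonium bromide library. In the PBS library it was at 608 CPM in those with Chil3, against 3 UMIs in those without. H2-Ab1 was at 176 against 599 CPM with thonzonium bromide and 72.2 against 285 CPM with PBS, and Cd74, the class II invariant chain, at 754 against 2019 and 361 against 1069.6 CPM. Across the whole class S100a8 was at 856 CPM with thonzonium bromide and 236 CPM with PBS.

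Over the 14 points given by 7 myeloid classes in 2 libraries, the genes with the most similar profile were described by Pearson's r of log levels, among 7778 genes. The points share libraries and depth, so no p is given. For Arg1 these were Ccl7 (r = 0.945), C1qb (0.940) and C1qc (0.929), and for Nos2 Lhfpl2 (0.928), Ctsd (0.920) and Ero1l (0.908). For Mrc1 they were C1qa (0.919), Vat1 (0.905) and Plxna1 (0.889), and for Chil3 Arhgef37 (0.929), Pgd (0.915) and Vcan (0.883), a proteoglycan of classical monocytes. Between the members r was 0.792 for Arg1 with Mrc1, 0.602 for Arg1 with Nos2 and 0.417 for Nos2 with Mrc1. Chil3 had 0.456 with Arg1, 0.448 with Nos2 and 0.257 with Mrc1.

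Related gene lists, from which the members were left out, were read in C1q macrophages. Of 19 genes of alternative activation, 11 were measured, 1 had a ratio of at least 2 and 1 of at most 0.5, and the median log2 ratio was 0.02; 1.39% of all genes measured had a ratio of at most 0.5. Clec10a was at 17.6 CPM with thonzonium bromide and 6.65 CPM with PBS, whereas Mgl2, its close relative, was at 4.39 and 14.3 CPM. Folr2 was at 35.3 and 24.7 CPM, Msr1, the scavenger receptor with most UMIs of the list, at 484 and 343 CPM, and Pparg, a lipid-sensing regulator, at 34.7 and 53.7 CPM. Reads of Clec10a and Mgl2 may be shared, since the genes are close copies. Of 20 genes of classical activation, 16 were measured, with a median log2 of 0.32 against 0.01 over all genes measured. Of the 16, 2 had a ratio of at least 2, which 0.946% of all genes measured reached. The 2 were Cxcl9, at 261 CPM with thonzonium bromide and 91.3 CPM with PBS, and Cd38, an ectoenzyme that consumes NAD, at 41.8 and 15.7 CPM. Cxcl10, another interferon-induced chemokine, was at 2405 CPM with thonzonium bromide and 1851 CPM with PBS. Ptgs2, the inducible cyclooxygenase, was lower, at 200.2 CPM with thonzonium bromide and 243 CPM with PBS.

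Among 12 measured genes of arginine handling none had a ratio past 2 or 0.5, and the median log2 was 0.00. Ass1, which rebuilds arginine from citrulline, was at 209.7 CPM with thonzonium bromide and 134 CPM with PBS, and Odc1, which turns ornithine into polyamines, at 89.3 and 111 CPM. Of 24 receptors and regulators upstream of the members none reached a ratio of 2, and the median log2 was 0.18 against 0.01 over all genes measured. Il13ra1, a receptor chain for interleukin 13, was at 76.0 CPM with thonzonium bromide and 41.8 CPM with PBS, Tlr2, which senses bacterial lipoproteins, at 130.0 and 90.3 CPM, and Cebpb, a regulator of Arg1, at 1211 and 1321 CPM. The 15 measured hypoxia and glycolysis genes had a median log2 of -0.08, with Vegfa at 102 CPM with thonzonium bromide and 167 CPM with PBS, and Ndrg1 at 79.6 and 126 CPM. The 4 granule and antimicrobial genes measured had a median log2 of 1.499, and 2 reached a ratio of 2, as did 0.946% of all genes measured. They were S100a9, at 51.9 CPM with thonzonium bromide and 6.18 CPM with PBS, and S100a8, at 62.0 and 11.9 CPM. The 13 matrix and lipid genes had a median log2 of 0.12 and 1 past 2, Lpl, a lipase, at 45.2 and 19.5 CPM. Mmp12, a macrophage elastase, was at 43.7 and 67.5 CPM, and Trem2, a lipid receptor, at 77.3 and 107 CPM. The 9 endocytic receptors measured had a median log2 of 0.43 and none past 2, with Cd36, a lipid scavenger receptor, at 30.3 and 16.2 CPM. The 3 measured cytokines had a median log2 of 0.41, with Tgfb1 at 210.5 and 158 CPM, and the 1 measured gene of the chitinase family, Chid1, had 0.23.

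In classical monocytes the same lists differed little in their medians. The 17 measured genes of classical activation had a median log2 of 0.26, with Cxcl9 at 282 CPM with thonzonium bromide and 77.1 CPM with PBS. The 8 measured granule genes had a median log2 of 0.47 and 3 with a ratio of at least 2, among them S100a8, given above, and Wfdc21, at 64.4 and 17.5 CPM. At the other end 0.999% of genes had a ratio of at most 0.5. They included Il6, a pro-inflammatory cytokine of the classical list, at 8.82 CPM with thonzonium bromide and 20.6 CPM with PBS, and Spp1 of the matrix list, at 37.9 and 107 CPM. Alternative activation had 5 genes measured, none past 2 or 0.5, with Klf4, a regulator of monocyte development, at 136 and 202 CPM.

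The cytokines known to induce the members were read in the cells that make them. Ifng, interferon gamma, was at 178 CPM (169 to 187) in thonzonium bromide T cells and 99.2 CPM (92.5 to 106) in PBS ones, and at 113 CPM (107 to 119) and 108 CPM (102 to 114) in NK cells. Il4 had 14 UMIs in 12 thonzonium bromide mast cells or basophils and 3 UMIs in 4 PBS ones. These were levels of 252 CPM (138 to 423) with thonzonium bromide and 151 CPM (31.1 to 440) with PBS, intervals that overlap. In T cells Il4 had 8 UMIs in each library. Il13 had 20 UMIs in thonzonium bromide T cells and 24 in PBS ones, at 2.32 and 2.97 CPM.

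**Figure D5:**
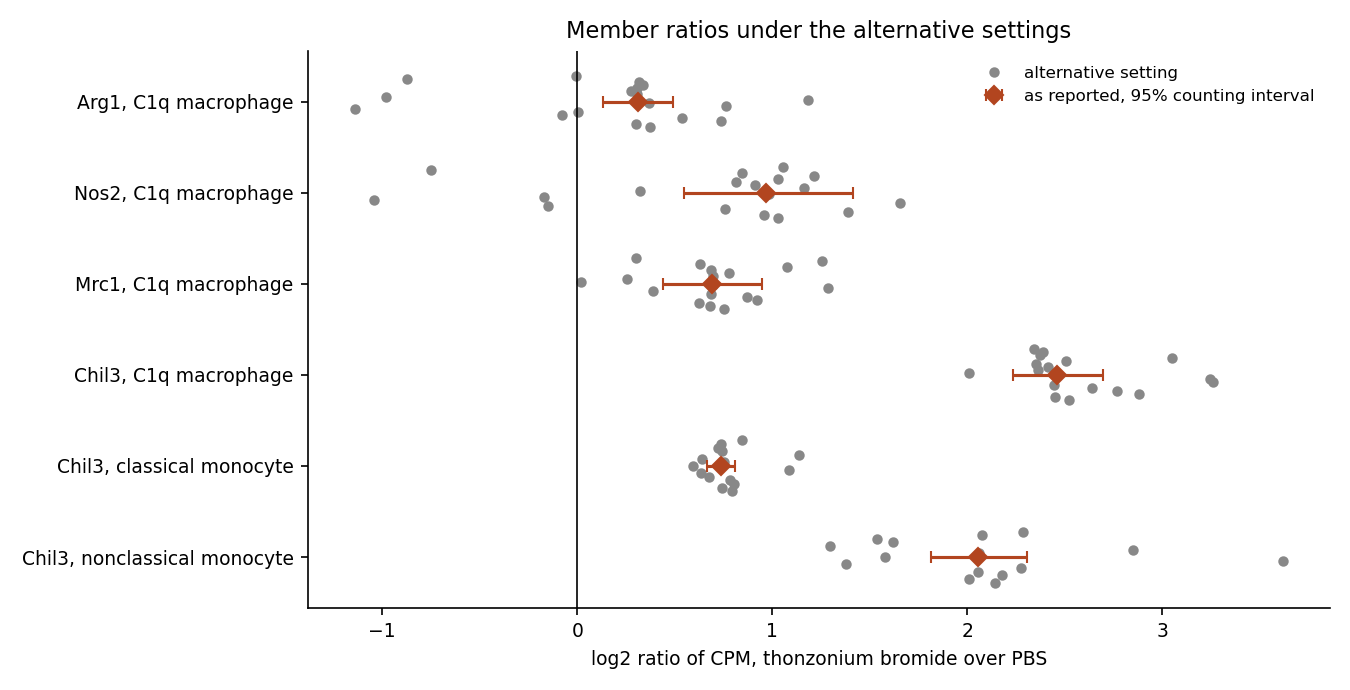
Log2 ratios of thonzonium bromide over PBS for the member genes as reported (diamonds, 95% counting intervals) and under each alternative setting (grey points). Chil3 stays above 0 in all 3 classes drawn and Mrc1 in C1q macrophages, whereas Arg1 and Nos2 in C1q macrophages lie on both sides of 0.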

How the data were processed

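The deposited matrices hold raw UMI counts per gene and cell; the authors made them with Cell Ranger 6.1.2, per the file headers, and build mm10, Seurat 3.0 and R 3.5.3 are named in the submitters' processing notes. The members and lists were chosen with earlier results of these data known. Barcodes were kept that had 200 genes or more and whose mitochondrial share did not pass 20%. They were clustered with scanpy 1.11.5 and leidenalg 0.10.2 (2000 variable genes, 30 components, 15 neighbours, resolution 1, no integration), with the members and 4 lists left out. Scrublet marked 0 cells in either library, so no doublets were removed and doublets are part of every class. A cluster was named from its markers. It stayed unnamed with fewer than 3 markers detected, with more markers of another type among its 10 leading genes, or with a median depth below its library's median divided by 3 and no own marker among those 10. One whose best names lay within 0.3 of each other also stayed unnamed, a rule set after the clusters were seen. Names are rebuilt here and may differ from the study's.

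Counts were summed per class and library and given as CPM, with exact Poisson intervals, exact conditional intervals for ratios and Clopper-Pearson intervals for shares, at 95%. A count of 0 was read against a floor of 3 counts. Shares at equal depth used cells thinned to 1000 UMIs, leaving out shallower cells, 19 of 537 thonzonium bromide and 66 of 341 PBS C1q macrophages. A ratio counted as past the threshold at 2 or 0.5, for genes with at least 50 UMIs over both libraries. The rule for named genes took the members and their close relatives. In C1q macrophages and classical monocytes it took the gene of each list with most UMIs and at most 2 genes at either end of the ratios whose interval excluded 1. It took the 5 most similar genes per member (at least 200 UMIs) and, per split, the 10 highest and 10 lowest genes (at least 100 UMIs), of which some are printed. With 1 library per group no test was run. The scripts were tested on simulated data. Values of 3 of the 6 unnamed clusters are not reported here.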

Additional observations from a re-analysis of the deposited data

Results flagged for a closer look

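Member UMIs also lay in clusters that stayed unnamed and that no comparison used; their values are given without a test. In the myeloid cluster led by S100a9 and S100a8, with C1q macrophage and neutrophil markers as its best names, Arg1 had 195 UMIs in 25 of 217 thonzonium bromide cells and 118 UMIs in 2 of 70 PBS cells. In the same cluster Mrc1 had 29 UMIs in thonzonium bromide cells. Chil3 had 853 UMIs in 122 thonzonium bromide cells and 162 UMIs in 21 PBS cells there.

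Chil3 had UMIs in further unnamed clusters. In a second cluster led by S100a9 and S100a8, apart from the myeloid cells, it had 132 UMIs in 63 of 201 thonzonium bromide cells and 56 UMIs in 44 of 608 PBS cells. In the cluster led by Shisal2b and Cald1 it had 83 UMIs in 22 of 70 thonzonium bromide cells and 38 UMIs in the 198 PBS cells, and Nos2 had 8 UMIs in thonzonium bromide cells and 17 UMIs, 17.7% of the library's, in PBS cells.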

How the results depend on the processing

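No paired analysis was possible because each group is 1 library, and leaving out a replicate was not possible for the same reason. Values are log2 ratios of thonzonium bromide over PBS. The cause of each shift was not tested. Settings that leave out the 3 cells of each library with most UMIs of the gene, the shallow, Ccl2- and Ccl7-led or Pf4- and Ccl8-led cells, or cells under 2000 UMIs were chosen after seeing the data.

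For Arg1 in C1q macrophages (0.31), 13 of 18 alternatives kept the sign. The value was 0.74 with each cell scaled alike, 0.54 thinned, 0.0029 at 10% mitochondrial UMIs, 0.76 at resolution 2 and 1.18 without lymphocyte-marker cells. It reversed at 500 genes (-0.079), with libraries clustered alone (-1.14), with the single-cell gate (-0.98), without the Ccl2- and Ccl7-led cluster (-0.87) and without the Pf4- and Ccl8-led cells (-0.0072). For Nos2 (0.97), 14 of 18 kept the sign: 1.66 at 10% mitochondrial UMIs and 0.32 without lymphocyte-marker cells, against -0.15 at 500 genes, -1.04 clustered alone, -0.17 at resolution 2 and -0.75 without the Ccl2- and Ccl7-led cluster. In classical monocytes the log2 ratio of Nos2 (3.01) turned to -0.91 at 10% mitochondrial UMIs. For Mrc1 (0.69), all 18 kept the sign: 0.39 clustered alone, 1.29 at resolution 2, 0.018 without lymphocyte-marker cells, 0.25 with the gate, 1.07 without the 3 highest cells, 1.26 without the Ccl2- and Ccl7-led cluster and 0.30 without the Pf4- and Ccl8-led cells.

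Chil3 kept its sign in every setting run. In C1q macrophages (2.46) it was 2.88 with each cell scaled alike, 2.77 thinned, 3.26 clustered alone, 3.24 at resolution 2, 2.01 without lymphocyte-marker cells and 3.05 without the 3 highest cells. In classical monocytes (0.74) it was 0.64 at 10% mitochondrial UMIs and without lymphocyte-marker cells, 1.09 clustered alone, 0.59 at resolution 2, 1.14 with the gate and 0.84 without the 3 highest cells. In nonclassical monocytes (2.06) it was 1.38 at 10% mitochondrial UMIs, 3.62 clustered alone, 1.58 at resolution 2, 2.85 without lymphocyte-marker cells, 1.30 with the gate, 1.62 in cells of at least 2000 UMIs and 1.54 with the same cluster weights. The log2 odds ratio of Arg1 with Mrc1 in thonzonium bromide C1q macrophages was 2.86 at 2 or more UMIs. In C1q macrophages 77 genes reached a ratio of 2 and 113 a ratio of 0.5, against 361 and 458 at a fold of 1.5, and 2181 and 2350 with no filter on low counts. In classical monocytes 85 and 82 did, against 335 and 413 at a fold of 1.5, and 2493 and 1732 with no filter.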
